A study of Mus musculus with 15 samples.

Results

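The nuclear-encoded subunits of the respiratory chain were followed in mouse primary hepatocytes, the parenchymal cells of the liver, by bulk RNA sequencing. Members were chosen by gene symbol alone, from the Nduf, Sdh, Uqcr, Cox4 to Cox8 and Atp5 families, without copies named as pseudogenes or predicted genes. This gave 92 of the 24347 entries of the table. They were 38 genes of complex I, 4 of complex II, 8 of complex III, 18 of complex IV and 15 of complex V, together with 7 assembly factors of complex I (Ndufaf) and the pair Atp5s and Atp5sl. The 5 groups held 3 libraries each and came from wild-type cells. They were vehicle, cAMP at 100 µM, cAMP with recombinant IL-13, glucagon at 100 nM, and glucagon with recombinant IL-13. IL-13 was used at 10 ng/mL and was present from 2 h before the stimulus, which lasted 3 h. No group received IL-13 alone. Vehicle columns could be tied to their group but not to single samples, so those libraries are called a, b and c. The strain label runs upward from C57BL/6 to C57BL/20 over the samples, whereas the methods name BALB/c as the default and C57BL/6 as another stock, so the strain is not settled. No label ties the 3 libraries in a group to different mice or cultures. The p-values therefore measure the spread between libraries, which may be technical. In bulk RNA, fewer cells of a type and less RNA per cell cannot be told apart.

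Oxidative phosphorylation passes electrons from NADH through complex I, or from succinate through complex II, to ubiquinone, then through complex III and cytochrome c to complex IV, where oxygen is reduced. Complexes I, III and IV pump protons, and complex V, the ATP synthase, uses the gradient to make ATP. Hepatocytes need that ATP for gluconeogenesis, the pathway that glucagon drives through cAMP, and in the same cells cAMP induces Ppargc1a, which encodes the coactivator PGC-1alpha of mitochondrial genes. PGC-1alpha acts on subunit genes through factors such as NRF1 and GABP. Most subunits are built from nuclear genes, and a core of complexes I, III, IV and V comes from mitochondrial DNA. The 13 mitochondrially encoded subunits were not analysed here.

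The promoters are shown first because the stimuli act through cAMP, which reaches many genes through CREB at the cAMP response element (CRE). RefSeq promoter sequences (GRCm38.p6, 250 bases before to 50 after the start site) matched 76 of the 92 members. The full CRE, TGACGTCA, is its own reverse complement, so both strands give the same match. It was found in 4 of 76 member promoters (5.26%), against 2.03% of the promoters of all 27025 genes in the table and 3.56% of those of the 9684 tested genes found there. The 4 are printed with the CRE in capitals, 5′ to 3′ on the strand of the gene.
Ndufa10 (chr1:92473782-92473861, minus strand): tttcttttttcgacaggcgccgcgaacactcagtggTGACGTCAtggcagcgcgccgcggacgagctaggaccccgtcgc
Ndufa11 (chr17:56717568-56717647, plus strand): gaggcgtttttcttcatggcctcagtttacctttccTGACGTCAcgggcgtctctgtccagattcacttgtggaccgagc
Ndufb2 (chr6:39592515-39592594, plus strand): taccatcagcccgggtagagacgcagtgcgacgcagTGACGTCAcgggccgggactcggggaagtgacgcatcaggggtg
Uqcrfs1 (chr13:30545302-30545381, minus strand): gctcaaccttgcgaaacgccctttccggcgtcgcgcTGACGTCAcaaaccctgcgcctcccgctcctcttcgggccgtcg
The CRE began 67, 158, 14 and 29 bases before the start site in Ndufa10, Ndufa11, Ndufb2 and Uqcrfs1. The shorter site TGACGTC, which every full CRE holds, was found in 6 member promoters (7.89%, against 3.60% of all and 6.23% of tested genes), with Cox8a and Ndufa5 added.

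NRF1 is the factor named for nuclear genes of respiration. Its core GCGCATGC, on either strand, was found in 12 of 76 member promoters (15.8%), against 3.05% of all promoters and 5.93% of those of tested genes. These were Atp5g2, Atp5k, Atp5l, Cox6a1, Ndufa6, Ndufa8, Ndufa11, Ndufaf4, Ndufaf5, Sdhb, Uqcr11 and Uqcrc1, so that each of the 5 complexes had at least 1. Examples from complexes I, II and IV are printed with the core in capitals. In Ndufa8 and Sdhb it lies on the opposite strand and therefore reads GCATGCGC.
Ndufa8 (chr2:36049309-36049382, minus strand): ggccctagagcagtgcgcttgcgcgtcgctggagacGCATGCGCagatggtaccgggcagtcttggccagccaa
Sdhb (chr4:140961181-140961260, plus strand): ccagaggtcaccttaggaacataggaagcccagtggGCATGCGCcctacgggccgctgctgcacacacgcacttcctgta
Cox6a1 (chr5:115349077-115349156, minus strand): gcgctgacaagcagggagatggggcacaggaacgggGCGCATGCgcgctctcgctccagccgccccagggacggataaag
YY1's element AAGATGGCG was in 8 member promoters (10.5%, against 1.64% of all and 3.63% of tested genes). The ETS core of GABP, CCGGAAGT, was in 5 (6.58%, against 4.31% and 8.98%), and CCAAT in 34 (44.7%, against 41.1% and 42.8%). A match describes letters in the window and is no evidence of binding.

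Promoters of tissue isoforms differed in CG content. They are printed for 2 pairs of complex IV with every CG in capitals, from 120 bases before to 20 after the start site.
Cox7a2 (chr9:79759834-79759973, minus strand): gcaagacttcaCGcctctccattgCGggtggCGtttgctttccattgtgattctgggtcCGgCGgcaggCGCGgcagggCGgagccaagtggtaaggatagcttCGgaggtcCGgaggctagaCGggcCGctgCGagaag
Cox7a1 (chr7:30184051-30184190, plus strand): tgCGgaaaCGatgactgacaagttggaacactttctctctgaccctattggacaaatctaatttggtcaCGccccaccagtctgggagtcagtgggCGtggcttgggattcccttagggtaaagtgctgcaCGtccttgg
Cox8a (chr19:7217597-7217736, minus strand): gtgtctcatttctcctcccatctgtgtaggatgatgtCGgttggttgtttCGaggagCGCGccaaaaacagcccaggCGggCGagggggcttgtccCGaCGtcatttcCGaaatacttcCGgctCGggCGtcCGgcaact
Cox8b (chr7:140900427-140900566, minus strand): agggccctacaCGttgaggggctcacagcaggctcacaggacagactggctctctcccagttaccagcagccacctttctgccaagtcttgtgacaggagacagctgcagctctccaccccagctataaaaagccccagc
Over the whole 300 bases, Cox7a2 and Cox8a, the forms of most tissues, held 20 and 19 CG, and Cox7a1 and Cox8b, the forms of heart and muscle, held 7 and 2. The median was 20 over member promoters and over promoters of tested genes, and 7 over all promoters. Cox7b, with 5 CG, and its testis form Cox7b2, with 10, stood in the opposite order.

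Levels per length were compared as FPKM, a read number corrected for transcript length and library depth. Subunits were among the more abundant messages of these cells: 82 of the 86 members past the filter on low values lay above the median of all tested genes, and 67 lay above the 90th percentile. The median over these 86 was 120.4 FPKM, against 7.50 over all tested genes. All members together took 0.902% to 1.03% of the scaled reads of a library, where scaled reads are read numbers that the authors put on a common scale between libraries. Cufflinks divides by a length corrected for fragment size, which inflates very short messages, and the length implied by the ratio of reads to FPKM was only 117 bases for Atp5k.

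**Figure D1:**
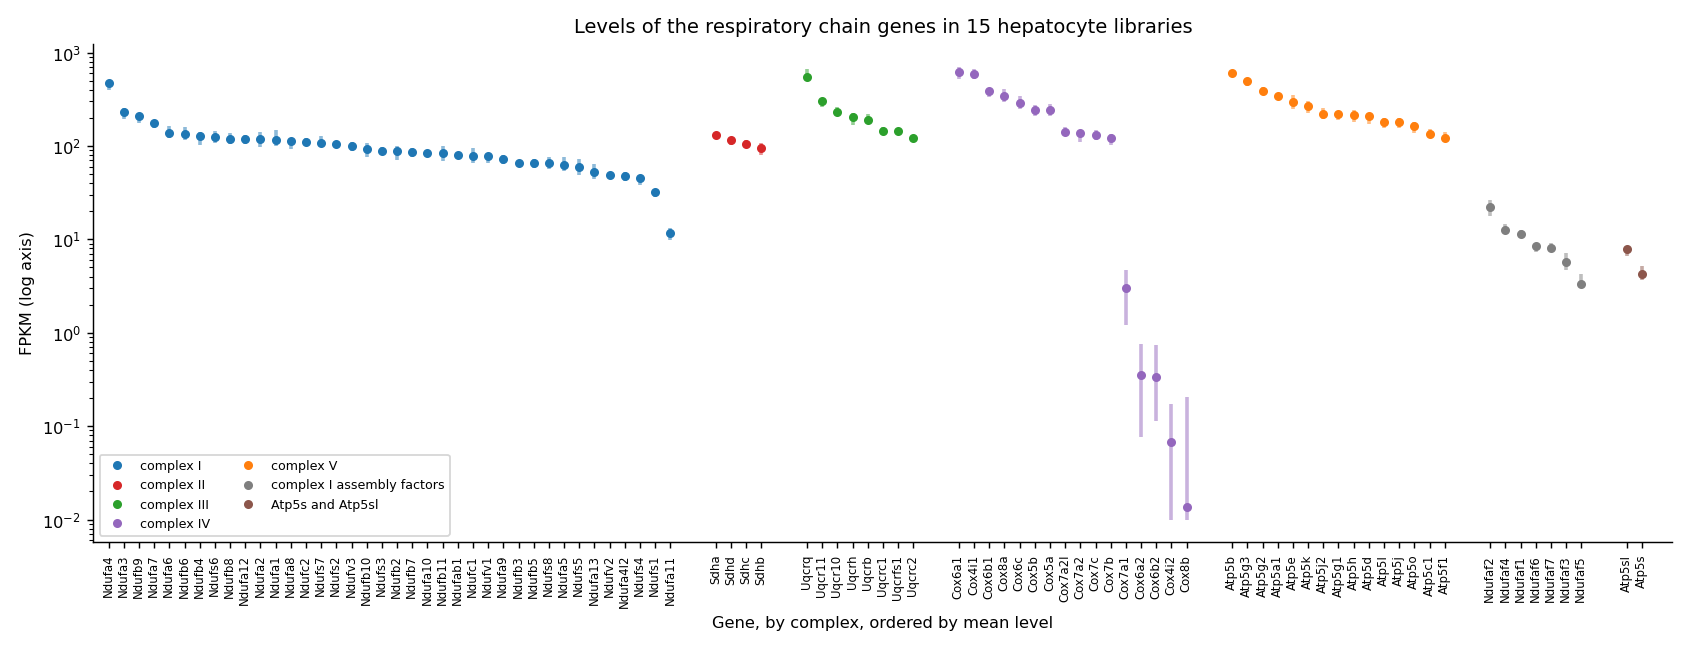
Mean FPKM over 15 libraries (points, log axis) of each member, with bars from the lowest to the highest library, grouped by complex. Bars of genes listed at 0 in a library end at the lower edge, and Cox7b2 and Cox8c, at 0 in every library, are not drawn. The 4 genes of complex II lie close together, whereas complex IV runs from Cox6a1 at 620 to isoforms below 1 FPKM.

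Complex I, the NADH dehydrogenase, spanned the widest range among the subunits past the filter after complex IV. Ndufa4, now usually placed in complex IV, led at 468 FPKM and Ndufa11 was lowest at 11.7 FPKM. The level of Ndufa11 rests on an implied length of 3323 bases, against a median of 584 over the members, and it had a mean of 763 scaled reads. Next lowest was Ndufs1, the largest iron-sulfur subunit, at 32.1 FPKM, while Ndufv1, which binds NADH, stood at 78.2 FPKM. Ndufa4l2, a paralog of Ndufa4 known as a target of hypoxia signalling, was at 48.1 FPKM.

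Complex II, succinate dehydrogenase, was the most even: its 4 genes ran from Sdhb, the iron-sulfur subunit, at 95.4 FPKM to Sdha, the flavoprotein, at 131.6 FPKM, a ratio of 1.38. Complex III, the cytochrome bc1 complex, ran from the core protein Uqcrc2 at 121.1 FPKM to the small subunit Uqcrq at 549.9 FPKM, with Uqcrc1 at 144.7 and the Rieske protein Uqcrfs1 at 143.1 FPKM. Complex V ran from Atp5f1, of the peripheral stalk, at 122.5 FPKM to Atp5b, the catalytic beta subunit, at 602.5 FPKM, a ratio of 4.92. The 3 genes for the identical subunit c, Atp5g1, Atp5g2 and Atp5g3, stood at 217.6, 388.0 and 492.0 FPKM. The assembly factors, which build complex I but are no part of it, were lower, from Ndufaf5 at 3.37 to Ndufaf2 at 22.3 FPKM. Atp5s and Atp5sl, which carry an ATP synthase name but are related to assembly proteins of complex I, were at 4.30 and 7.83 FPKM.

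Complex IV, cytochrome c oxidase, held the isoforms known from heart, muscle, lung and testis, and in these cells the liver or general form prevailed in every pair. Cox6a1 was at 525.2 to 706.2 FPKM over the 15 libraries and its muscle form Cox6a2 at 0.0765 to 0.760 FPKM. Cox4i1 was at 523.3 to 659.6 FPKM and the lung form Cox4i2 at 0 to 0.175 FPKM. Cox6b1 stood at 335.7 to 417.1 FPKM, against 0.113 to 0.743 for the testis form Cox6b2. Cox8a had 294.0 to 403.1 FPKM and Cox8b at most 0.206. Cox7a2 had 110.8 to 149.2 FPKM, the related supercomplex factor Cox7a2l 128.1 to 160.1, and Cox7a1 1.20 to 4.68 FPKM. Cox7b was at 102.2 to 132.8 FPKM, while Cox7b2 and Cox8c, testis forms, were listed at 0 in all 15 libraries. No pair overlapped between libraries. Of the 6 muscle and heart markers, Myh6, Myh7 and Ckm were at 0 in every library, and the other 3 summed to 372 to 752 scaled reads.

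Low expression removed 6 members from the tests, all minor isoforms of complex IV: Cox4i2, Cox6a2, Cox6b2, Cox7b2, Cox8b and Cox8c. The other 86 reached 10 scaled reads in 3 or more libraries. Reads can also be shared with copies: 24 members had at least 10% of the 50-base words of their transcripts in another gene, highest in Atp5l at 84.8%, and values of these genes are less certain. Among the genes named in the comparisons this concerned Cox6a1, at 12.3%, and Uqcr11, at 10.9%.

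The table summed to between 18793294 and 19955402 scaled reads per library, and its steps implied 15567725 to 24246021 reads. All 8 hepatocyte markers were present, with a summed level of 618500 to 764678 scaled reads per library, and the 10 Kupffer cell markers summed to 5236 to 6166. Vehicle library a stood apart from b and c: over 9475 genes its difference from its group mates had a correlation of -0.69 with log2 transcript length, and -0.46 to 0.53 was the range in the other 14 libraries. The members are short, with 85 of 86 below the median implied length of 2608 bases of the tested genes. The values of vehicle b and c in that range, 0.51 and 0.53, have library a among the mates. The most in a stimulated group was 63 of the 86 above both mates, in glucagon library 3. Its difference from the mean of its mates had a median over the 86 of 0.08 on the log2 scale. In library a 80 of the 86 lay above both other vehicle libraries. The difference of library a from the mean of b and c had a median over the 86 of 0.22 on that scale. Counts and medians of the members against vehicle are therefore given with and without library a.

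The first comparison asked how far direct cAMP moved the respiratory chain. The change was small: 6 of the 86 tested members rose and none fell, by 1.08- to 1.17-fold. Among all 12703 genes tested, 13.0% rose and 12.8% fell. The median over the members was 0.08 on the log2 scale, against 0.01 over all genes, and 76 of the 86 estimates lay above 0. In 67 members the 95% interval stayed within 0.3 of no change on that scale. Expression changes below are limma estimates on log2(scaled reads + 1), with Benjamini-Hochberg adjustment over all tested genes and a threshold of 0.05.

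Ndufa4l2 had the largest of the 6 rises. It stood at 986, 1010 and 970 scaled reads in vehicle a, b and c and at 1210, 1109 and 1143 with cAMP. All cAMP libraries lay above all vehicle libraries, for a log2 change of 0.22 ± 0.06 (SE, adjusted p = 0.0156). Ndufa7, an accessory subunit of complex I, had 1632, 1487 and 1462 scaled reads with vehicle and 1739, 1633 and 1801 with cAMP. Its lowest cAMP library was barely above vehicle a, and the change was 0.18 ± 0.06 (SE, adjusted p = 0.0337).

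In complex II, Sdha rose. It had 5854, 6064 and 6066 scaled reads with vehicle and 6489, 6527 and 6425 with cAMP, a tight and separate pair of groups at a log2 change of 0.11 ± 0.04 (SE, adjusted p = 0.0493). Sdhb, at 2103 ± 254 with vehicle and 2145 ± 65 with cAMP (SD, n = 3), did not pass. In complex IV, Cox6a1 had 6467, 6165 and 5611 scaled reads with vehicle and 7134, 6564 and 6850 with cAMP. Its groups did not overlap, and the change was 0.17 ± 0.06 (SE, adjusted p = 0.0438).

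Both called genes of complex V belong to F1, its soluble part. Atp5a1, the alpha subunit, had 14140, 13600 and 13708 scaled reads with vehicle and 15215, 15341 and 14626 with cAMP. Atp5d, the delta subunit of the central stalk, had 4409, 4184 and 3860 with vehicle and 4934, 4552 and 4690 with cAMP. Neither overlapped between the groups, at log2 changes of 0.12 ± 0.04 (SE, adjusted p = 0.0192) for Atp5a1 and 0.19 ± 0.07 (SE, adjusted p = 0.0495) for Atp5d. Atp5b, their catalytic partner, stood at 20178 ± 465 with vehicle and 21352 ± 277 with cAMP (SD, n = 3) and did not pass, with 0.08 ± 0.04 (SE, adjusted p = 0.114).

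No gene of complex III passed. The nearest was Uqcr11, with 1877 ± 84 scaled reads in vehicle and 2160 ± 73 with cAMP (SD, n = 3) and an adjusted p of 0.0520 in limma. Groups separated without overlap in 10 members upward and 1 downward, or 11 of 86, whereas 17.6% of all tested genes separated upward and 17.1% downward. The lowest estimate belonged to Cox7a1, at 5.09 to 13.4 scaled reads with cAMP and 12.8 to 18.9 with vehicle, where the groups overlapped and the log2 value was -0.60 ± 0.31 (SE, adjusted p = 0.179). Muscle and heart markers were also lower there, at 390 to 410 against 673 to 752 scaled reads, and their part in that value was not tested. The 4 members with a full CRE in the printed promoter did not pass: their log2 values were 0.05 for Ndufa10, 0.14 for Ndufa11, 0.16 for Ndufb2 and 0.04 for Uqcrfs1. Without vehicle a, Ndufa11 rose by 0.23 and Ndufb2 by 0.24 (adjusted p = 0.0126 and 0.0242 in limma). Of the 12 with an NRF1 core, Cox6a1 alone passed, and without vehicle a Ndufa6, Ndufa8, Ndufa11 and Uqcr11 passed as well. Over all 86 tested members 6 rose with cAMP, and 38 without vehicle a. The NRF1 holders were thus called at a share near that of the members at large.

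Medians by complex were close to each other with cAMP: 0.10 for complex I, 0.09 for complex II, 0.07 for complex III, 0.10 for complex IV and 0.08 for complex V on the log2 scale. The assembly factors had a median of -0.04 and Atp5s and Atp5sl one of -0.11, and none of these 9 genes passed. Without vehicle a the medians of complexes I to V were 0.19, 0.13, 0.13, 0.17 and 0.15, and that of the assembly factors was 0.05, above 0 instead of below.

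**Figure D2:**
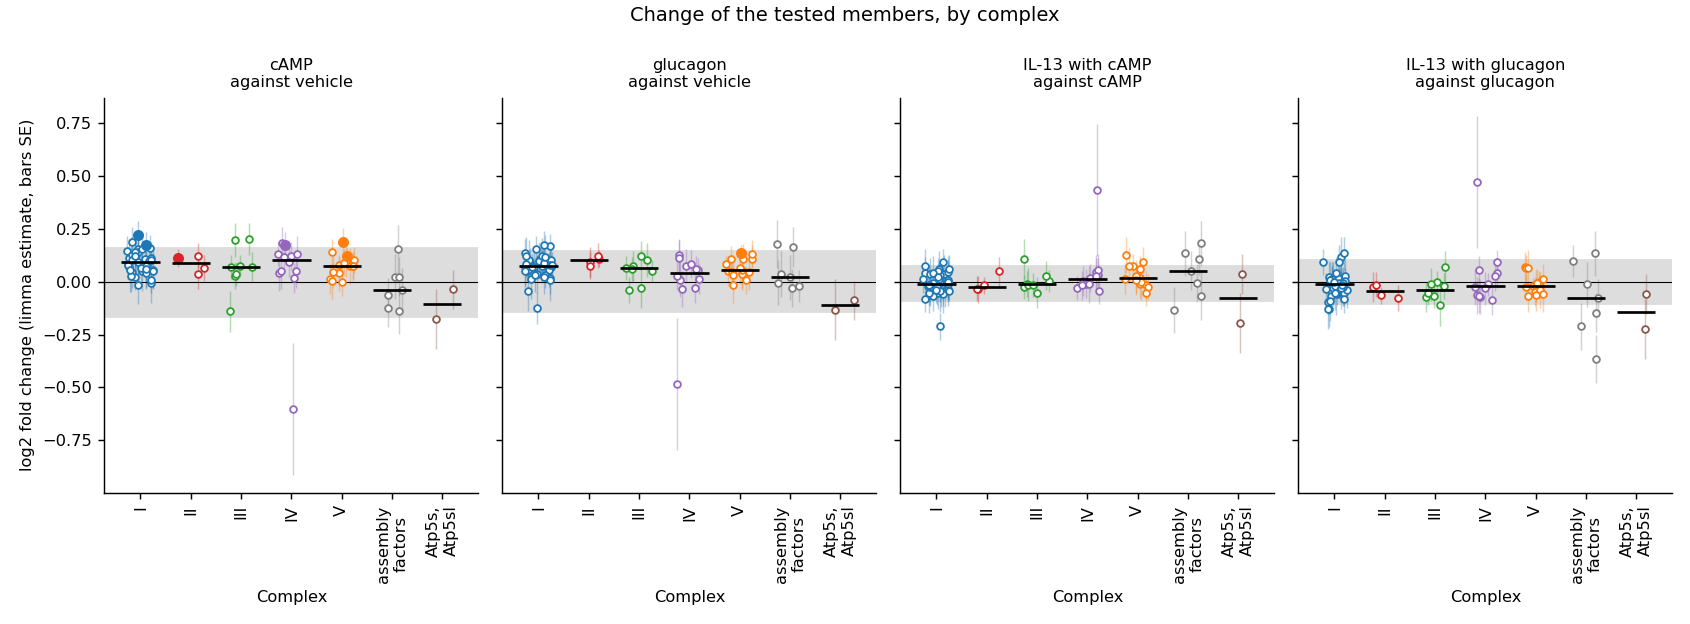
Log2 fold change of each tested member (points, bars are SE) by complex in 4 comparisons, with filled points for an adjusted p below 0.05, black lines for medians and a grey band between the quartiles of all tested genes. With cAMP 6 points are filled, with glucagon 1, and with IL-13 none. The isolated point in complex IV is Cox7a1, a gene of few reads.

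Glucagon, which raises cAMP through its own receptor, gave 1 called member. Atp5a1 had 15246, 14887 and 15402 scaled reads with glucagon, all above the 13600 to 14140 of vehicle, for a log2 change of 0.14 ± 0.04 (SE, adjusted p = 0.0150 in limma). Over all genes 9.35% rose and 9.53% fell. The member median was 0.07, against 0.02 over all genes, with 73 of 86 estimates above 0 and 78 intervals within 0.3. Sdha, at 6341 to 6530 scaled reads, lay above every vehicle library with glucagon too, yet did not pass (adjusted p = 0.0696). Ndufa4l2 likewise separated, at 1013 to 1163, with an adjusted p of 0.109. These comparisons share the vehicle libraries, so their directions are not independent.

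Between the stimuli, glucagon against cAMP, no member passed, while 4.27% of all genes did. At an unadjusted limma p below 0.05 there was 1 member, against 15.1% of all genes, and the member median was -0.01. In 78 members the 95% interval of the difference lay within 0.3 on the log2 scale.

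The number of called members depended most on vehicle library a. Without it 38 members rose with cAMP and 28 with glucagon, and none fell. Over all genes, 14.2% and 11.8% rose and 14.7% and 12.6% fell. Of the members called without library a, 20 rose with both stimuli, and both comparisons share vehicle b and c. The number over all genes that rose with both is not given here. Without a the rises ran from 0.10 to 0.31 with cAMP and from 0.10 to 0.27 with glucagon on the log2 scale. The member medians were 0.15 and 0.14, and the medians over all genes in that setting are not given here. With cAMP they were 19 of 38 tested genes in complex I, 1 of 4 in complex II, 3 of 8 in complex III, 7 of 12 in complex IV and 8 of 15 in complex V. Glucagon gave 13, 2, 3, 3 and 7 in the same order. No assembly factor was among them under either stimulus.

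Uqcrh, the hinge protein of complex III, had the largest rise with cAMP in that setting, at 0.31 ± 0.06 (SE, adjusted p = 7.90e-04 in limma), followed by Cox7a2 at 0.30 ± 0.06 (SE, adjusted p = 2.47e-04). With glucagon the largest was Ndufs4, an accessory subunit of complex I, at 0.27 ± 0.07 (SE, adjusted p = 0.0113). Of the 6 genes called with cAMP in all libraries, 5 were called again without library a, and Sdha was not.

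Leaving out other libraries also moved the count. For cAMP it was 1 without vehicle b, 2 without vehicle c, 0, 3 and 2 without cAMP library 1, 2 and 3, 3 without any 1 of the 6 libraries with IL-13, and 8, 5 and 6 without glucagon library 1, 2 and 3. For glucagon it was 1 without vehicle b or c, 4 without glucagon library 1, 2 without library 2 and 0 without library 3. Counts over all genes are not given beside these leave-out counts. A shift of the members alone therefore cannot be told from a shift over all genes in them. The member medians without vehicle b were 0.05 with cAMP and 0.04 with glucagon, against 0.01 over all genes with each, and without vehicle c they were 0.03 and 0.01, against 0.00 and 0.01. With the trend on transcript length removed from each library, 16 members rose with cAMP, against 17.0% of all genes, and 6 with glucagon, against 13.8%, and none fell, against 15.3% and 12.3%. With that trend removed and library a left out as well, 11 rose with cAMP and 6 with glucagon, and 1, Ndufa3, fell with glucagon. Over all genes, 15.4% rose and 13.7% fell with cAMP in that setting, and 12.5% rose and 11.3% fell with glucagon. When libraries were scaled by their total, no member passed with either stimulus and the member medians were 0.02 and 0.03, and none passed when only the 2 groups compared were fitted. That scaling also changed the split over all genes, from 1648 up and 1624 down to 1265 up and 2147 down with cAMP, and from 1188 and 1211 to 956 and 1502 with glucagon. The part of transcript length in the results was not tested beyond these values.

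**Figure D3:**
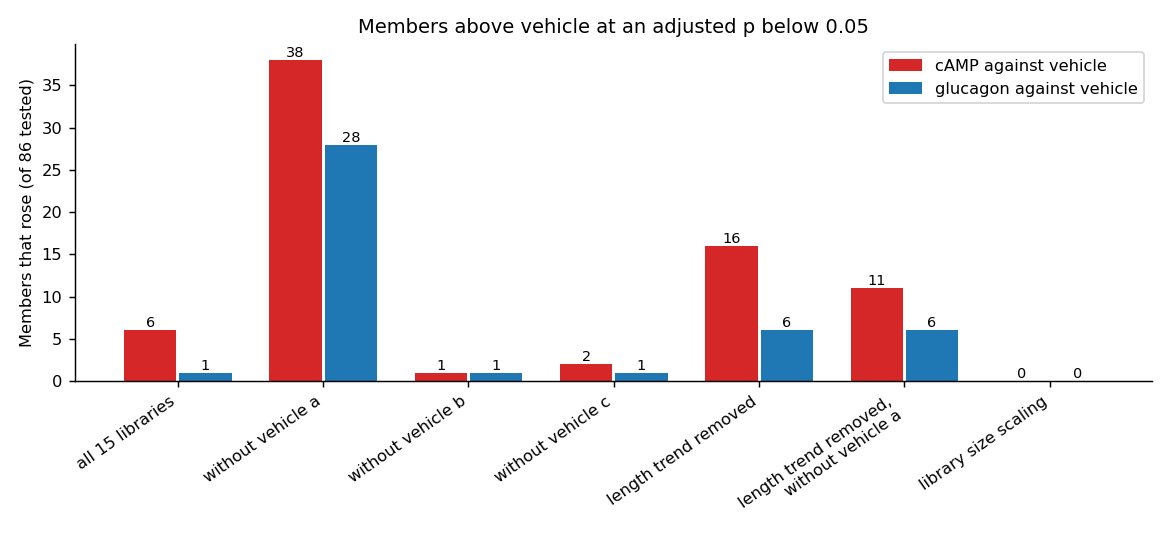
Number of the 86 tested members above vehicle at an adjusted p below 0.05 for cAMP (red) and glucagon (blue) under 7 settings. Leaving out vehicle a gives 38 and 28, removing the length trend 16 and 6, and scaling by library size 0 and 0.

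Library by library the pattern was the same in all 5 complexes. As a median over the 86 tested members, vehicle a lay 0.09 above the mean of the 15 libraries on the log2 scale, b lay 0.10 below and c 0.16 below. The 12 stimulated libraries lay between -0.05 and 0.07, inside the span of the vehicle group. Summed FPKM told the same for complex I, at 3906 ± 498 with vehicle, 4070 ± 47 with cAMP, 4079 ± 47 with cAMP and IL-13, 4018 ± 133 with glucagon and 3956 ± 164 with glucagon and IL-13 (SD, n = 3). The vehicle range of 3535 to 4472 enclosed all others. Complex III stood at 1868 ± 210 with vehicle, 1920 ± 16 with cAMP, 1934 ± 29 with cAMP and IL-13, 1894 ± 76 with glucagon and 1842 ± 75 with glucagon and IL-13 (SD, n = 3). Complex IV stood at 3157 ± 432, 3317 ± 51, 3333 ± 29, 3212 ± 147 and 3213 ± 153 FPKM in the same order of groups (SD, n = 3), and complex V at 3882 ± 408, 4047 ± 43, 4166 ± 41, 4032 ± 137 and 4016 ± 133 FPKM (SD, n = 3). Their vehicle ranges of 1713 to 2107, 2809 to 3641 and 3588 to 4348 also enclosed every stimulated library. Complex II was the exception. Its vehicle sum was 427 ± 23 FPKM (SD, n = 3), from 408 to 452. The stimulated groups, in the same order, stood at 454 ± 4, 455 ± 7, 457 ± 15 and 445 ± 7 FPKM (SD, n = 3). Their libraries ran from 450 to 458, 447 to 459, 446 to 475 and 437 to 451, so each range overlapped that of vehicle.

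**Figure D4:**
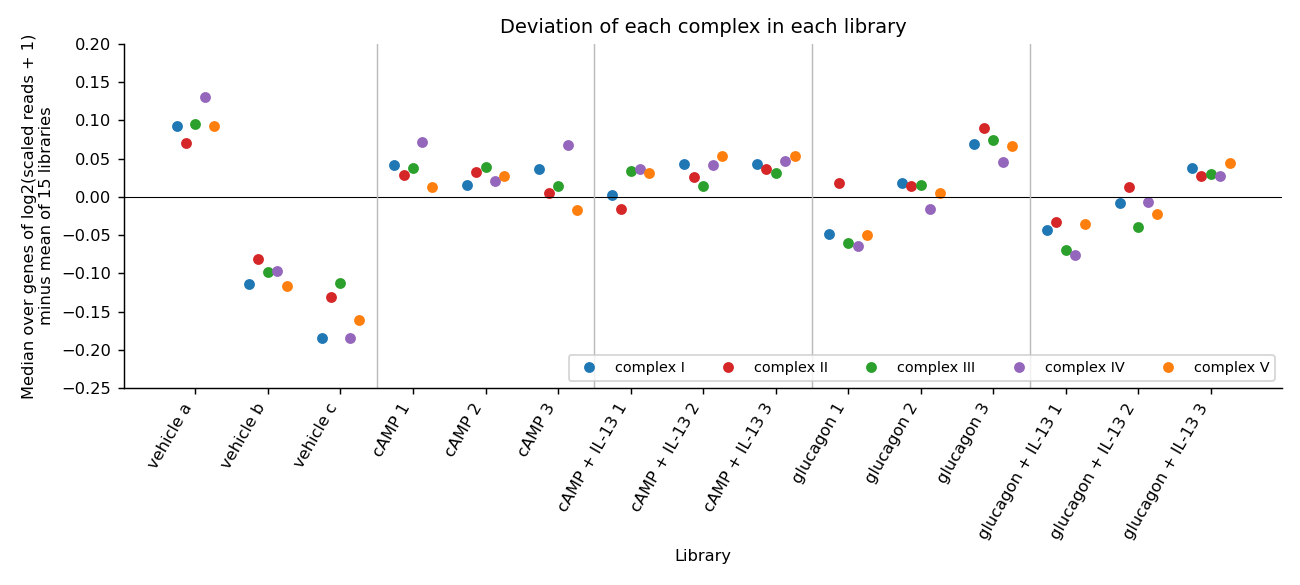
Median over the tested genes of each complex of log2(scaled reads + 1) minus the gene's mean over 15 libraries, for each library. Vehicle a lies above 0 and vehicle b and c below it in all 5 complexes, and the stimulated libraries lie between them, except that glucagon 3 lies above vehicle a in complex II.

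IL-13 did not change any member past the threshold. On top of cAMP, 3.90% of all genes were called and 0 of the 86 members, with 1 member and 13.1% of all genes at an unadjusted limma p below 0.05. The member median was 0.00 on the log2 scale and 77 intervals stayed within 0.3. That 1 gene was Ndufa4l2, at 1021, 1002 and 966 scaled reads with cAMP and IL-13, below all 3 cAMP libraries, for a log2 value of -0.21 ± 0.06 (SE, adjusted p = 0.0875). It passed when vehicle a was left out and when only the 12 stimulated libraries or only the 2 groups were fitted, but not in those 12 with the replicate number as a block.

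On top of glucagon, 5.73% of all genes were called and again 0 members, with 1 member and 18.2% of all genes at an unadjusted limma p below 0.05 and a member median of -0.02. This was Ndufaf3, an assembly factor of complex I, with 134, 141 and 145 scaled reads for glucagon and 109, 107 and 109 with IL-13 added. The groups were separate, and the log2 value was -0.36 ± 0.11 (SE, adjusted p = 0.0748). It passed without vehicle a and in the 12 stimulated libraries alone, but not in those 12 with the block. Over both stimuli the mean IL-13 effect called 10.1% of all genes and no member, with 3 members and 22.0% of all genes at an unadjusted limma p below 0.05, and 82 intervals within 0.3. The difference between the IL-13 effects called 0 members and 0 genes, with 1 member and 608 genes (4.79%) at an unadjusted limma p below 0.05.

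Regulators of these genes moved in both directions. Ppargc1a, the coactivator named above, had 25.2, 45.5 and 54.2 scaled reads with vehicle and 640, 613 and 689 with cAMP, and glucagon gave 548, 517 and 451. Every stimulated library was far above vehicle, at a log2 change of 3.99 ± 0.19 with cAMP and 3.63 ± 0.19 with glucagon (SE, adjusted p = 7.83e-10 and 3.26e-09 in limma). Its paralog Ppargc1b rose by 1.02 and 0.69, and Ppara, the fatty acid receptor of liver, by 1.38 and 0.88. Nrf1 fell by 0.40 with each stimulus, and Pprc1, the third member of the PGC-1 family, fell by 0.41 and 0.47 on the log2 scale. With cAMP, Gabpb1, a GABP subunit, fell by 0.29 and Creb1 by 0.30. In all, 3 of the 19 tested regulators rose with each stimulus and 4 and 2 fell, at list medians of -0.07 for both. Without vehicle a the fall of Gabpb1 did not pass (adjusted p = 0.0895 in limma), and Sp1 fell with both stimuli. Esrra, Gabpa and Tfam did not pass, at 0.01, -0.10 and -0.21 with cAMP. IL-13 called no regulator on top of either stimulus, and Ppara alone fell in the mean IL-13 effect, by 0.23.

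Carriers and subunits with other symbols were mostly near the members. Of 10 tested, 2 rose with cAMP: Cyc1, cytochrome c1 of complex III, by 0.14 ± 0.05 (SE, adjusted p = 0.0462 in limma), and Gpd2, the mitochondrial glycerol phosphate dehydrogenase that feeds electrons to ubiquinone, by 0.63 ± 0.08 (SE, adjusted p = 7.65e-06). Gpd2 alone rose with glucagon, by 0.52. Cytochrome c, Cycs, was at -0.04 and 0.01. Etfb, of the same list, passed with cAMP only without vehicle a, at 0.20 (adjusted p = 0.0491 in limma). Slc25a3, the phosphate carrier, rose by 0.17 with each stimulus, the 1 of 7 exchange and uncoupling genes called, and Vdac1 rose with glucagon as well without vehicle a.

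Genes upstream of the chain showed single larger rises. Of 13 genes of the TCA cycle list, 3 rose with cAMP and 2 with glucagon: Fh1, fumarase, by 1.01 and 0.86, Mdh2, malate dehydrogenase, by 0.37 and 0.37, and Ogdh, with cAMP, by 0.21. The medians over the 13 were 0.08 and 0.10. Without vehicle a Ogdh did not pass (adjusted p = 0.0900 in limma). In that setting Suclg2, of the same list, rose by 0.15 with cAMP and 0.17 with glucagon (adjusted p = 0.0452 and 0.0289 in limma). In the ubiquinone list, 4 of 13 rose with each stimulus and 1, Adck3, fell with glucagon. Coq10a, a ubiquinone-binding protein, rose by 0.60 and 0.55, and Coq10b by 0.30 and 0.39. With cAMP, Coq9 passed only with vehicle a included, and Coq7 only without it. Adck3, a kinase-like factor of ubiquinone synthesis, also fell with IL-13, by 0.43 on top of cAMP and 0.43 on top of glucagon (adjusted p = 3.48e-04 and 3.42e-04 in limma). In the mean IL-13 effect, Idh3a, a subunit of an NAD-dependent isocitrate dehydrogenase, rose by 0.22 and Idh2, the NADP-dependent enzyme, fell by 0.15.

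Assembly genes outside the symbol rule moved in both directions. Of 9 tested for complex I, 2 fell with cAMP, Tmem126b by 0.58 and Tmem70, also a factor of complex V, by 0.37. Lyrm2 fell with glucagon, by 0.43. Of 24 for complex IV, Sco1, a copper chaperone, fell by 0.45 and Cox19 by 0.27 with cAMP, while Pet117 rose by 0.69 and Coa7 by 0.23. Coa7 rose with glucagon as well, by 0.28, and Taco1, which acts in synthesis of a mitochondrially encoded subunit, fell by 0.26 with IL-13 on top of glucagon. None of 10 genes for complexes II and III passed. Of 77 tested genes of the mitochondrial ribosome, 3 rose and 3 fell with cAMP, and 1 rose and 2 fell with glucagon, at medians of 0.01 and 0.03. Without vehicle a, Lyrm2 and Cox19 did not pass, and Sdhaf4, of the list for complexes II and III, rose with glucagon. In that setting 5 of the 24 complex IV genes rose and 2 fell with cAMP, 3 rose with glucagon, 8 ribosomal genes rose and 2 fell with cAMP, and 5 rose and 1 fell with glucagon.

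Marker lists of other cell types were set beside these results. Hepatocyte markers had a median of 0.21 with cAMP, where 4 of 8 rose, and of 0.14 with glucagon, where 2 of 8 rose. With cAMP these were Tat by 3.14, Hnf4a by 0.62, Cps1 by 0.54 and Ttr by 0.31, while Alb, at 0.09, did not pass. With glucagon they were Tat by 2.34 and Hnf4a by 0.39. Whether such rises mark a response to the stimulus or more hepatocyte RNA was not tested. Summed over the 8, hepatocyte markers ran from 618500 to 721682 scaled reads with vehicle, from 697358 to 764678 with cAMP and from 681992 to 734294 with glucagon. Kupffer cell markers summed to 5498 to 5748, 5698 to 6166 and 5756 to 5855 in the same groups, with 1 of 10 up in cAMP and none in glucagon. Sinusoidal endothelial markers summed to 1208 to 1565, 1460 to 1561 and 1435 to 1559, stellate cell markers to 271 to 417, 378 to 425 and 388 to 438, and cholangiocyte markers to 13769 to 14892, 12664 to 13128 and 13042 to 13737. Lymphocyte markers summed to 40.9 to 55.1, 47.9 to 52.8 and 49.6 to 68.5. Of the 8 endothelial markers 2 rose and 3 fell with cAMP and 1 rose with glucagon, and all 3 tested cholangiocyte markers fell with cAMP, at a median of -0.26. The sums of the muscle and heart markers were 673 to 752 scaled reads in the vehicle group, 390 to 410 under cAMP and 583 to 625 under glucagon, and of the 2 tested, Actc1 and Acta1, both fell with cAMP and Acta1 with glucagon. Without vehicle a, 6 of 8 hepatocyte markers rose with cAMP, at a median of 0.35, and 5 of 8 with glucagon, at 0.28, while Csf1r of the Kupffer, Pecam1 of the endothelial and Krt19 of the cholangiocyte list no longer passed with cAMP. With IL-13 on top of cAMP, 3 of 8 hepatocyte and 1 of 10 Kupffer cell markers fell, and of the 8 endothelial markers 2 rose and 1 fell. On top of glucagon, 2 of 8 hepatocyte markers fell, and of the 8 endothelial markers 1 rose and 2 fell. There 1 of 3 cholangiocyte markers rose, and the 1 tested lymphocyte marker and 1 of 2 muscle and heart markers fell. The part of marker levels in the small rises of the subunits was not tested.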

How the data were processed

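Hepatocyte RNA was sequenced as single-end reads, which the authors aligned to mm10 with TopHat 1.3.2 and quantified with Cufflinks 2.0.2. The authors used edgeR to call genes. The annotation and strand setting are not given in the sources used here. The deposited signal table holds read numbers that were put on a common scale between libraries (scaled reads). The authors' FPKM table was used for levels and as an alternative. Of the 24347 entries, 27 had symbols turned into dates.

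Because the deposited values are scaled and are not counts, limma 3.58.1 (R 4.3.3, variance trend, robust) modelled log2(scaled reads + 1) in the 15 libraries by group alone, for the 12703 genes that reached 10 scaled reads in 3 or more of them. There were 7 comparisons. The pseudocount of 1 understates changes of low genes. Precision is set by 15567725 to 24246021 implied reads per library and 3 libraries per group.

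Named were all called members, up to 12 per direction, the highest and lowest member of each complex, isoform families, core subunits and assembly factors. Of the list genes, not every regulator and not every gene past the threshold is named. Some are given only in counts, as for the ribosomal genes, and 1 regulator that fell in glucagon against cAMP is not given. Uqcr11, Uqcrh, Ndufs4, Atp5k, Atp5l and Ndufa3 were singled out after their values were seen, and CRE and NRF1 holders by their motif. One list gene is not reported here. The members and lists were chosen with earlier results of these data known. Same-numbered libraries had correlations of deviations from -0.47 to 0.49, so the numbers were not taken as pairs.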

Additional observations from a re-analysis of the deposited data

How the results depend on the processing

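Counts of called members kept their direction except where stated, and their size depended on the vehicle libraries and the scaling. For cAMP, with 6 called, there were 3 with no filter on low values, 0 with library size scaling, 0 with only the compared libraries, 16 with the length trend removed, and 0 to 38 on leaving out 1 library. For glucagon, with 1 called, these were 0 with library size scaling, 0 with only the compared libraries, 3 in the FPKM table, 6 with the length trend removed, and 0 to 28 on leaving out 1 library. Chosen after seeing the data, voom weights gave 0 and 0, and removing the length trend without vehicle a gave 11 and 7 called, 1 of the latter a fall. For IL-13 on top of cAMP, 1 was called with only the compared libraries, 1 in the 12 stimulated libraries and 1 with the length trend removed without vehicle a, and 0 to 1 on leaving out 1 library. For IL-13 on top of glucagon, 1 was called in the 12 stimulated libraries and 0 to 1 on leaving out 1 library. The mean IL-13 effect called 2 in the FPKM table. With the replicate block in the 12 stimulated libraries, the count was 0 in each of the 5 comparisons without vehicle. The single calls of IL-13 on top of cAMP (Ndufa4l2) and of glucagon (Ndufaf3) in those libraries were thereby lost. All member calls of the 15-library fit were against vehicle, where the block was not fitted, so pairing by number could not change them. The causes were not tested. With no filter on low values, 1542 of 17979 genes rose and 1564 fell with cAMP, against 1648 and 1624 of 12703 in the main fit. Where no number over all genes is given for a setting, a shift of the members alone cannot be told from a shift over all genes. Planned count tests were not run because the values are scaled. Of the single-gene results and complex medians under alternatives, 3296 were labelled the same as in the main fit, 56 stronger, 76 weaker and 0 reversed. Complex medians carry no test, so for them these labels are not calls.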
